A study of Mus musculus with 2 samples.

Results

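The genes described here mark epithelium, and comprise the keratins of simple, basal and differentiated epithelium, epithelial adhesion and desmosome genes, claudins, regulators of epithelial identity, and milk protein genes. They were compared between the MSU pool and the control pool of air pouch membrane RNA. The list holds 43 genes, of which 41 had at least 1 probe set that the platform annotation assigns to that gene alone, out of 18193 genes with such a probe set in all. The prolactin receptor gene Prlr and the desmosomal cadherin gene Dsg3 were not analysed here. The list was drawn up from these same 2 arrays, after Krt8, Krt7, Aqp5, Fcgbp and Epcam had been seen among the lowest MSU/control ratios. All ratios given here are therefore descriptions of the values that chose the genes and are accompanied by no test.

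The air pouch is a cavity raised with air under the dorsal skin, and its lining serves as a model of the synovial membrane. The MSU pool held RNA from pouch membranes of 3 female Balb/C mice, 6 to 8 weeks old, taken 9 h after 2 mg of monosodium urate (MSU) crystals in 1 ml phosphate-buffered saline (PBS) had been injected. The control pool held RNA from 3 mice of the same strain, sex and age, whose pouches received 1 ml PBS alone and were taken at the same time. Each pool was hybridized to 1 Affymetrix Mo430_2 array, so there are no replicates, the mice within a pool cannot be told apart, and p-values cannot be given. Skin lies over the membrane, and the methods describe blunt dissection of the membrane from the subcutaneous and paraspinal tissue around it.

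Keratins are the intermediate filament proteins of epithelial cells and assemble from obligate pairs of a type I and a type II chain. KRT8 with KRT18, often joined by KRT7 and KRT19, is the set of single-layered and glandular epithelium. KRT5 with KRT14 marks the basal layer of stratified epithelium such as epidermis, and KRT1 with KRT10 replaces them as keratinocytes differentiate. Glands of the skin, including the mammary gland, carry simple keratins in their luminal cells and basal keratins in the surrounding myoepithelial layer.

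A probe set is a set of oligonucleotides that reads 1 transcript or, for some sets, several. Its signal is a linear intensity that had been scaled to the same trimmed mean on both arrays. Signals of different probe sets are not set against each other here. A detection floor was placed at a signal of 74.1 on the MSU array and of 64.6 on the control array. Where both signals reached the floor, their ratio is called a fold. Where 1 of them did, it was set against the floor of the other array and the result is called a bound, written as "at least". A gene that has either is called measured, and values below the floor carry no order among themselves. Where a gene had several probe sets, it is represented by the one with the highest mean log2 signal. The whole membrane was measured, so fewer cells of a type and less RNA per cell cannot be told apart. Markers of the cells that make up the membrane were present in both pools: 12 of 12 fibroblast markers were measured, and 11 of 12 macrophage markers, with Timd4 below the floor in both.

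Of 12 genes of simple and glandular epithelium, 6 were at least 2-fold lower in the MSU pool, 4 of them by a bound alone, 3 had a fold or a bound under that size and 3 reached the floor in neither pool. Of 12 genes of basal and differentiated epidermis, 10 lay below the floor in both. Of the 41 genes, 10 reached the floor in the MSU pool and 20 in the control pool. Both pools shared 9 of these, 1 reached it only in the MSU pool, 11 only in the control pool, and 20 in neither. Over all 18193 genes, 2.09% reached it only in the MSU pool and 5.79% only in the control pool, and 6713 genes reached it in neither. A gene detected in the control pool alone enters the measured genes only through its control signal, so its bound can only point downward.

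Among the 21 epithelial genes that were measured, 8 had a signal at least 2-fold lower in the MSU pool, namely Krt8, Krt18, Krt19, Epcam, Aqp5, Fcgbp, Jup and Csn3, while no gene reached 2-fold in the other direction. Among all 11155 measured genes, 4.29% were lower and 3.7% higher by that size. Since the list was chosen on this contrast, nothing is read from the difference between these shares. The remaining 13 of the 21 had a fold or a bound between these limits. The median log2 ratio was -0.52 over the 9 genes with a fold, beside -0.05 over the 10045 genes with a fold on the arrays. The plot of the signals of each gene in both pools shows the order of the groups.

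**Figure D1:**
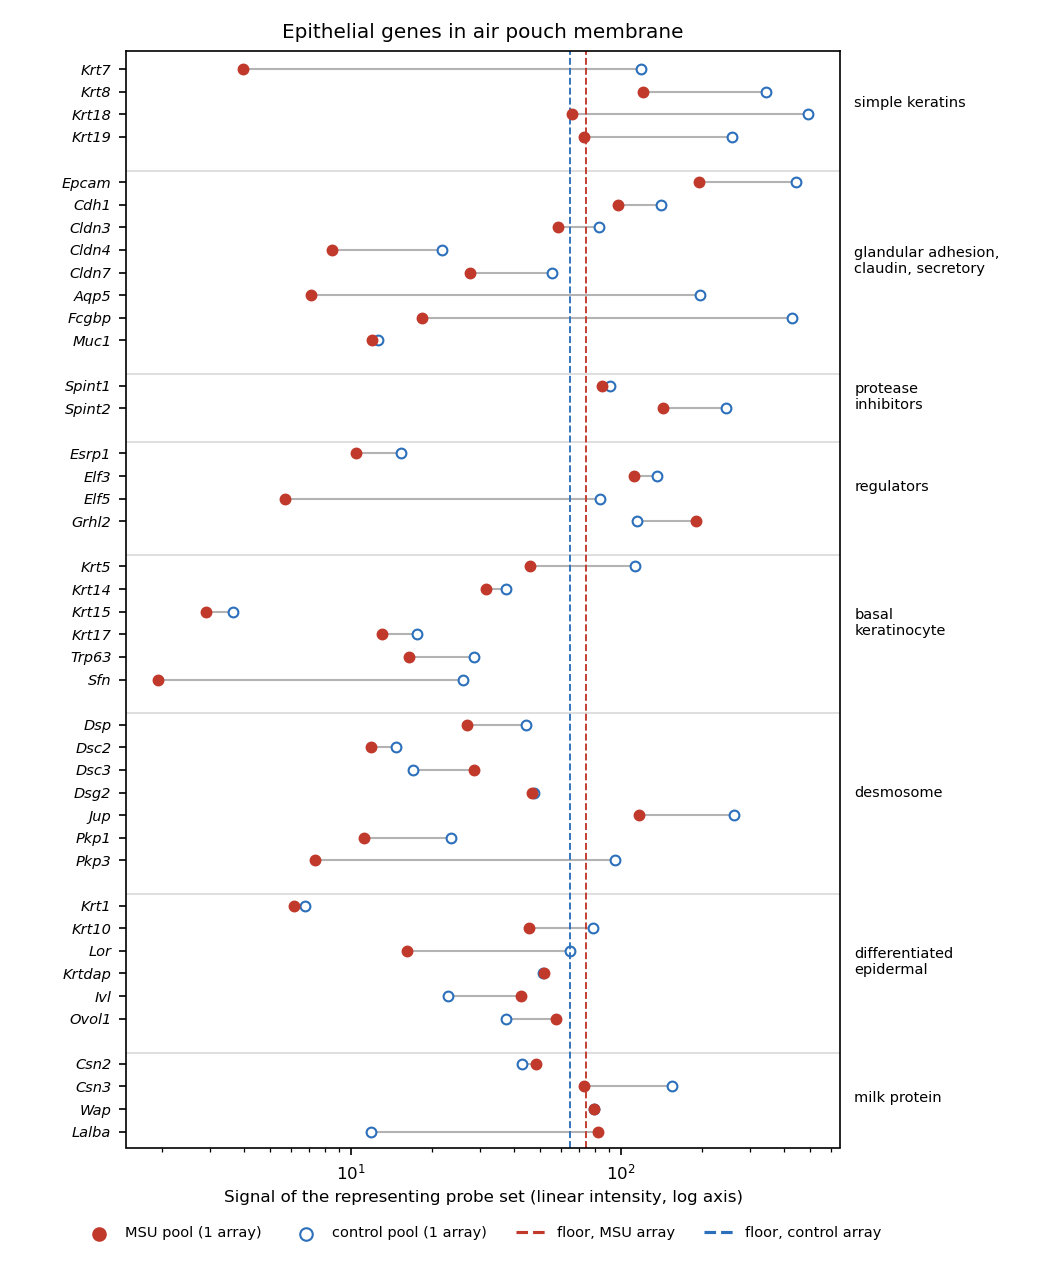
Signal (x axis, linear intensity on a log scale) of the representing probe set of each of the 41 epithelial genes (y axis, grouped by role) in the MSU pool (filled red) and the control pool (open blue), 1 array each. Dashed lines are the detection floors of 74.1 (MSU) and 64.6 (control). All 4 simple keratins are right of the floor in the control pool, whereas of the basal and differentiated epidermal genes only Krt5 and Krt10 are.

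The simple keratins were all above the floor in the control pool, and Krt8 alone of the 4 was above it in the MSU pool. Krt18, the type I partner of KRT8, had a signal of 65.7 in the MSU pool, against 489.7 in the control pool, and was at least 6.61-fold lower. Krt19, a type I keratin of ducts and glands, had signals of 72.8 in the MSU pool and 257 in the control pool, and was at least 3.46-fold lower. Both were detected in the control pool alone. Krt7, a type II keratin of ducts and glands, had signals of 3.97 in the MSU pool and 118 in the control pool. Its control signal was not far above the floor, and it was at least 1.59-fold lower.

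Krt8, the type II keratin of simple epithelium, had 3 probe sets, all lower in the MSU pool. The probe set that represents the gene had a signal of 121 in the MSU pool, against 344 in the control pool, which is 2.84-fold lower. The other two lay above the floor in the control pool alone. Their signals were 38.8 in the MSU pool and 196 in the control pool for one, at least 2.64-fold lower, and 6.98 in the MSU pool and 272 in the control pool for the other, at least 3.67-fold lower. On the log2 scale the fold was -1.51 and the bounds were at most -1.40 and at most -1.88, so all 3 were past 2-fold. The size of the drop differed between them. Their plain log2 ratios spanned 3.78, wider than in 99.8% of 4848 genes with several probe sets above a floor. That span rests on MSU signals below the floor.

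Sequences upstream of the gene are shown for Krt8, Krt18, Epcam and Fcgbp, which are part of the 8 genes at least 2-fold lower. These sequences were picked for display, and whether their letters go with a lower signal was not tested. Each is the 250 bases before the RefSeq start of the gene (assembly GRCm38.p6), 5′ to 3′ on the strand of the gene. Capitals mark 2 motifs, the E-box CACCTG on either strand (CAGGTG where it is on the other strand) and TATAA, the core of the TATA box, on the strand of the gene; they do not overlap here. The E-box of these letters is known as a site for repressors of the Snail and ZEB families in promoters of epithelial genes such as Cdh1. The windows lie at chr15:102004343-102004592 on the minus strand for Krt8, at chr15:102027966-102028215 on the plus strand for Krt18, at chr17:87635729-87635978 on the plus strand for Epcam and at chr7:28070986-28071235 on the plus strand for Fcgbp.
Krt8: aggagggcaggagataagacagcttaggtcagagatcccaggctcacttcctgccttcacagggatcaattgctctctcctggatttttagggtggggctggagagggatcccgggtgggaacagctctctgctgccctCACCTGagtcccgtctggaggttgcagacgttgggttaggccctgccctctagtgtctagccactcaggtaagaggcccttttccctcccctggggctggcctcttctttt
Krt18: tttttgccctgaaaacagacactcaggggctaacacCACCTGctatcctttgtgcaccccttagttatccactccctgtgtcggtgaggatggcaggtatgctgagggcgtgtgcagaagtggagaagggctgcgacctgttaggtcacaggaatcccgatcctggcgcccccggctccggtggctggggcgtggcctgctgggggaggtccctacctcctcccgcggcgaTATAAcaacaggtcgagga
Epcam: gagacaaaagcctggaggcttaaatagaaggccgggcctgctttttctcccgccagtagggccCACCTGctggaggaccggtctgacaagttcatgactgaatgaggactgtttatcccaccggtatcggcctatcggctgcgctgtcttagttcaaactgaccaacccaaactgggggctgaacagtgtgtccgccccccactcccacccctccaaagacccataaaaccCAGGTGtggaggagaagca
Fcgbp: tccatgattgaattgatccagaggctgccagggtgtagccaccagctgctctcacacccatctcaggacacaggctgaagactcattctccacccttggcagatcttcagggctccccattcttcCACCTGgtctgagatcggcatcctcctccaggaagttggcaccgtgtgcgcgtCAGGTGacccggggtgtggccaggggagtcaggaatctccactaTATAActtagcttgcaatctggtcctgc

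The motifs were chosen after these sequences had been seen, so the following shares are a description. Of the 12 simple keratin and glandular adhesion, claudin and secretory genes, 10 had a window in the table used, with 11 windows in all, and 8 of the 11 (72.7%) held CACCTG on either strand. Of all 43 genes, 27 had a window, and 15 of their 31 windows (48.4%) held it. The windows of Krt8, Krt18, Epcam and Fcgbp, seen before the motif was chosen, all hold it and are counted in both of these shares. The share was 17.2% over the 18109 windows of genes with a value on the arrays and 15.3% over the 11567 windows of measured genes. The motif was also in 2 of 3 windows of basal keratinocyte genes, 3 of 6 of regulators and 1 of 2 of protease inhibitors. It was in 1 of 4 differentiated epidermal windows, 0 of 2 desmosome windows and 0 of 3 milk protein windows. The desmosome and milk protein groups include Jup and Csn3, which were also at least 2-fold lower. TATAA was in 3 of the 11 simple keratin and glandular windows (27.3%) and in 7 of the 31 windows of the whole list (22.6%). It was in 4 of 4 differentiated epidermal windows. The share was 11.4% over windows of genes with a value and 8.97% over those of measured genes. A match of letters is no site of binding, and windows without a match say nothing of a factor.

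Of 8 glandular adhesion, claudin and secretory genes, 5 were measured and 3 were at least 2-fold lower. Fcgbp, which encodes a protein of mucus that binds IgG Fc, had a signal of 18.3 in the MSU pool, against 429 in the control pool, and was at least 5.80-fold lower. Aqp5, the water channel of salivary, lacrimal and sweat glands, had signals of 7.14 in the MSU pool and 197 in the control pool, and was at least 2.65-fold lower. Both genes had a single probe set and were detected in the control pool alone.

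Epcam, the epithelial cell adhesion molecule, had signals of 194 in the MSU pool and 445 in the control pool on its representing probe set, which is 2.29-fold lower. On its other probe set the signals were 7.77 in the MSU pool and 157 in the control pool, at least 2.12-fold lower. Both probe sets were thus past 2-fold, and 1 of them was above the floor in the MSU pool. Their plain log2 ratios differed by 3.15, more than in 99.5% of the 4848 genes with several probe sets above a floor. That difference rests on the MSU signal of 7.77, which is below the floor. Cdh1 (E-cadherin), the calcium-dependent adhesion molecule of epithelial cells, had signals of 97.7 in the MSU pool and 140.3 in the control pool and was 1.44-fold lower.

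Claudins seal the tight junctions of epithelium, and only Cldn3 of the 3 on the list was measured. Its representing probe set had signals of 58.2 in the MSU pool and 82.7 in the control pool, at least 1.12-fold lower. A second had 13.5 in the MSU pool and 98.3 in the control pool, at least 1.33-fold lower. The third had 46.3 in the MSU pool and 69.2 in the control pool, too low for a bound, and the last was below the floor in both. No MSU signal of the 4 reached the floor. The plain log2 ratios of the 3 above the control floor spanned 2.36, wider than in 98.7% of such genes with several probe sets. Cldn4 (8.48 in the MSU pool, 21.7 in the control pool), Cldn7 (27.5 in the MSU pool, 55.3 in the control pool) and the membrane mucin Muc1 (11.9 in the MSU pool, 12.6 in the control pool) were below the floor in both pools. Of the 12 simple keratin and glandular genes together, 9 were measured and 6 were at least 2-fold lower, 4 of them by a bound.

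**Figure D2:**
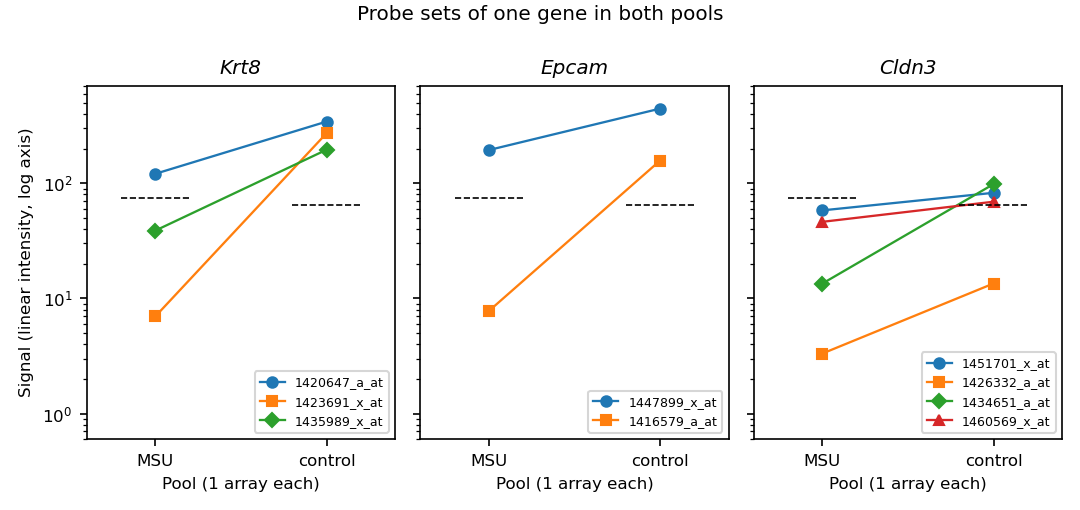
Signal (y axis, linear intensity on a log scale) of each probe set of Krt8, Epcam and Cldn3 in the MSU pool (left) and the control pool (right), 1 array per pool, with dashes at the floors of 74.1 and 64.6. All probe sets of Krt8 and Epcam are above the floor in the control pool, and 1 of each is above it in the MSU pool, at 121 for Krt8 and 194 for Epcam.

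**Figure D3:**
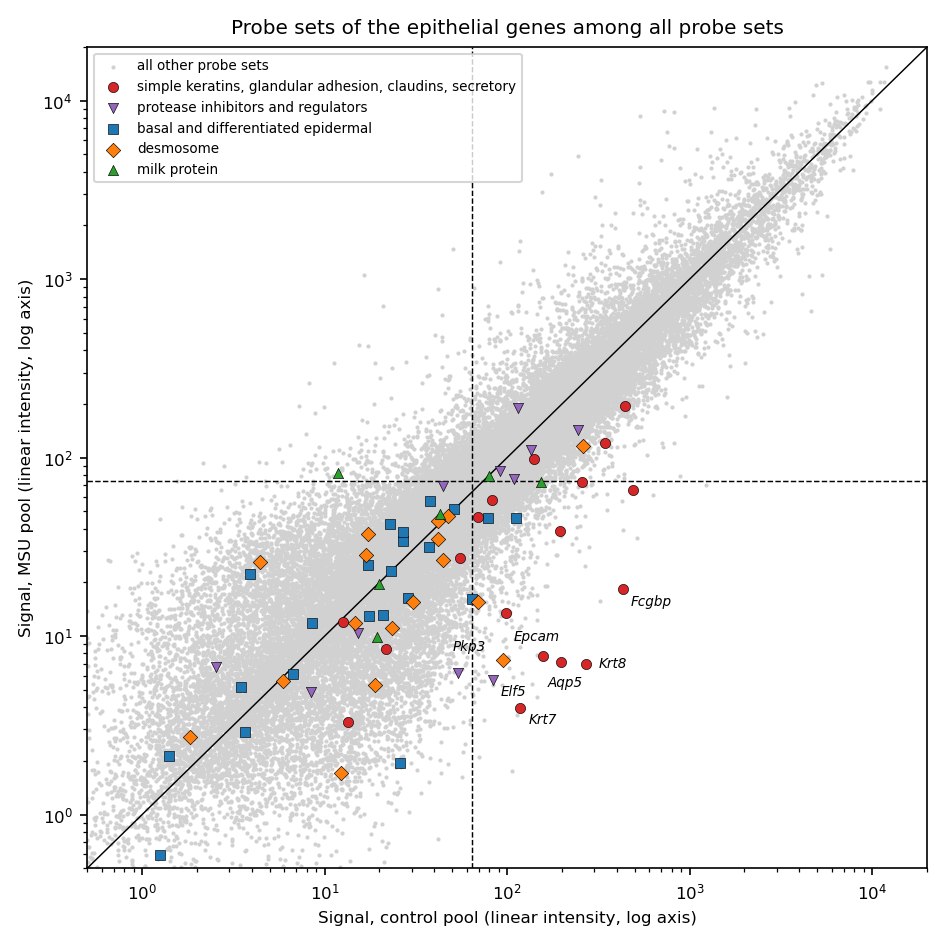
MSU signal (y axis) against control signal (x axis) for all probe sets, both linear intensities on log scales, 1 array per pool, with the 74 probe sets of the epithelial genes in colour by role. Dashed lines are the floors and the solid line is equal signal. The named probe sets at the lower right are above the floor in the control pool alone, and most blue squares (basal and differentiated epidermal genes) lie below both floors.

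Of the genes that regulate epithelial identity, 3 were measured and none differed by 2-fold or more. They lay on both sides of 0, but this rests on 1 of the 4 probe sets of Grhl2. Grhl2, a grainyhead-like transcription factor of epithelial junction genes, was the only gene of the list with a fold above 1, with signals of 190.0 in the MSU pool and 114 in the control pool, which is 1.66-fold higher. Its other 3 probe sets were below the floor in both pools. Elf3, an epithelium-specific ETS factor, had signals of 111 in the MSU pool and 136 in the control pool and was 1.23-fold lower. Elf5, the ETS factor of mammary alveolar cells, had a signal of 5.71 in the MSU pool and of 83.3 in the control pool. Since that control signal was near the floor, Elf5 was at least 1.12-fold lower, and its other probe set (6.20 in the MSU pool, 53.9 in the control pool) was below the floor in both. Esrp1, an epithelial splicing regulator, was below the floor in both, at 10.4 in the MSU pool and 15.3 in the control pool.

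The Kunitz-type inhibitors of epithelial serine proteases were above the floor in both pools. Spint2 had signals of 143 in the MSU pool and 245 in the control pool, 1.71-fold lower. Its other probe set had 75.6 in the MSU pool and 109 in the control pool, 1.44-fold lower. Spint1 had 84.6 in the MSU pool and 91.1 in the control pool and was 1.08-fold lower. The log2 ratio of Spint1, -0.11, was smaller than the SD of 0.33 by which probe sets for 1 gene differed in log2 ratio, pooled over 4002 genes, and that of Spint2, -0.78, was larger. Among the regulators, the log2 ratio of Elf3, -0.29, was also smaller than this SD, and that of Grhl2, 0.73, was larger. This SD holds no variation between mice.

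Of 6 basal keratinocyte genes, Krt5 alone was measured. It had a signal of 45.8 in the MSU pool, against 112 in the control pool, and was at least 1.52-fold lower. Its partner Krt14 was below the floor in both pools on all 3 of its probe sets, with 13.2 to 31.6 in the MSU pool and 20.9 to 37.3 in the control pool. A further probe set, which the annotation assigns to Krt14 and Krt17 together and which therefore represents neither, had 81.3 in the MSU pool and 48.2 in the control pool. Krt15, a keratin of basal cells and the hair follicle bulge, had 2.90 in the MSU pool and 3.66 in the control pool. Krt17, a keratin of hair follicles and injured epidermis, had 13.0 in the MSU pool and 17.5 in the control pool. The basal cell transcription factor gene Trp63 had 16.4 in the MSU pool and 28.6 in the control pool, and none of its 4 probe sets reached the floor. Sfn, which encodes the stratifin (14-3-3 sigma) of keratinocytes, had 1.94 in the MSU pool and 26.0 in the control pool.

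Of 6 differentiated epidermal genes, Krt10 alone was measured, with 45.8 in the MSU pool and 78.6 in the control pool, at least 1.06-fold lower. Its type II partner Krt1 was at 6.14 in the MSU pool and 6.74 in the control pool, far under the floor in both. Lor, which encodes the cornified envelope protein loricrin, had 16.1 in the MSU pool and 64.4 in the control pool, just under the control floor of 64.6. Krtdap, a keratinocyte differentiation gene, had 51.9 in the MSU pool and 51.4 in the control pool. The envelope precursor Ivl (involucrin) had 42.6 in the MSU pool and 22.8 in the control pool, and Ovol1, a zinc finger factor of keratinocyte differentiation, had 57.3 in the MSU pool and 37.6 in the control pool. All 12 basal and differentiated epidermal genes were below the floor in the MSU pool, and 10 of the 12 were below it in the control pool too. None of the 12 was at least 2-fold lower, against 6 of the 12 simple and glandular genes, but with 2 measured genes on the epidermal side the 2 counts cannot be compared by size of fold, and no difference between them was tested.

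Desmosomes anchor keratin filaments at cell contacts, and of 7 desmosome genes with a probe set 2 were measured. Jup, the gene of plakoglobin, which is also part of adherens junctions outside epithelium, had signals of 116 in the MSU pool and 261 in the control pool and was 2.24-fold lower. Pkp3, a plakophilin of epithelium, had 7.38 in the MSU pool and 94.7 in the control pool, at least 1.28-fold lower, and its other probe set was below the floor in both pools. Dsp (desmoplakin), which links keratins to the plaque, had 26.9 in the MSU pool and 44.3 in the control pool on its representing probe set. Another probe set of Dsp was above the floor in the control pool alone, at 15.6 in the MSU pool and 69.1 in the control pool, too low for a bound. The desmosomal cadherins Dsc2, Dsc3 and Dsg2 and the plakophilin Pkp1 were below the floor in both pools, with the representing probe sets at 11.2 to 46.9 in the MSU pool and 14.7 to 47.5 in the control pool.

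Milk protein genes gave no common direction. Csn3 (kappa-casein), which stabilizes the casein micelle, had signals of 73.0 in the MSU pool and 154 in the control pool and was at least 2.08-fold lower, while its other probe set was below the floor in both, at 19.5 in the MSU pool and 19.9 in the control pool. Wap (whey acidic protein) was above the floor in both pools at 79.0 in the MSU pool and 79.2 in the control pool, a log2 ratio of -0.00. Lalba, the alpha-lactalbumin of lactose synthesis, was the 1 gene that only the MSU pool detected, at 82.0 in the MSU pool and 11.9 in the control pool, at least 1.27-fold higher. Csn2 (beta-casein) was below the floor in both, at 48.3 in the MSU pool and 43.0 in the control pool. Under scaling on the spike-ins, Lalba was no longer measured.

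Other genes of epithelium, from lists that were also written with earlier results known, were mostly below the floor. Of 31 further junction and surface genes with a value, 9 were measured, and 1 differed by 2-fold or more. It was the surface protease gene Tmprss2, with 80.7 in the MSU pool and 191 in the control pool, 2.37-fold lower. For the 7 of them with a fold, the median log2 ratio was -0.24. Of 16 further epithelial transcription and splicing regulators, 5 were measured and none differed by 2-fold in either direction, and of 7 hemidesmosome and epithelial laminin genes 3 were measured with the same result. Of 15 further milk and lactation genes, 8 were measured, and 1 differed by 2-fold or more. Xdh, the xanthine oxidoreductase that makes urate and also coats milk fat droplets, was 2.10-fold higher, at 330.3 in the MSU pool and 157 in the control pool.

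Markers of fat, skeletal muscle and contractile smooth or myoepithelial cells included genes that were at least 2-fold lower in the MSU pool. Among all 11155 measured genes, 4.29% were lower and 3.7% higher by that size. Of 10 measured adipocyte markers, 9 were at least 2-fold lower, and the summed signal of the list was 3325 in the MSU pool and 13002 in the control pool. Such sums include signals below the floor and follow the brightest probe sets, here Fabp4 with 5879 in the control pool. Of this list, Cidea, Pparg and Acvr1c were below the floor in both pools. Of 24 measured skeletal muscle markers, 11 were at least 2-fold lower, with summed signals of 34406 in the MSU pool and 58419 in the control pool, and no marker was below the floor in both. The others were under 2-fold in either direction or had a bound below it, and Acta1 and Ttn had log2 ratios of 0.20 and 0.11. Of 5 measured myoepithelial and smooth muscle genes, 3 were at least 2-fold lower, which were Myl9 (at least 8.55-fold), Tagln (5.53-fold) and Acta2 (2.15-fold). The oxytocin receptor gene Oxtr of myoepithelium had 34.7 in the MSU pool and 100.4 in the control pool, at least 1.35-fold lower, whereas Myh11 and Cnn1 were below the floor in both. The paper saw no fat cells or skeletal muscle in sections of dissected membranes. Its quantitative PCR, however, found that resistin and dystrophin mRNA varied between control membranes, and RNA was pooled for that reason. Here Retn (resistin) had 280 in the MSU pool and 932 in the control pool, 3.33-fold lower. Dmd (dystrophin) had 106 in the MSU pool and 148 in the control pool, 1.39-fold lower. The part of fat, muscle or gland tissue left on either set of membranes in the keratin and Epcam ratios was not tested. Of 11 measured neutrophil markers, 10 were at least 2-fold higher, with summed signals of 24849 in the MSU pool and 3032 in the control pool. In the MSU pool S100a8 gave 8677 and S100a9 gave 8737 of that sum. Fibroblast markers had a median log2 ratio of 0.00 and none of 12 differed by 2-fold.

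**Figure D4:**
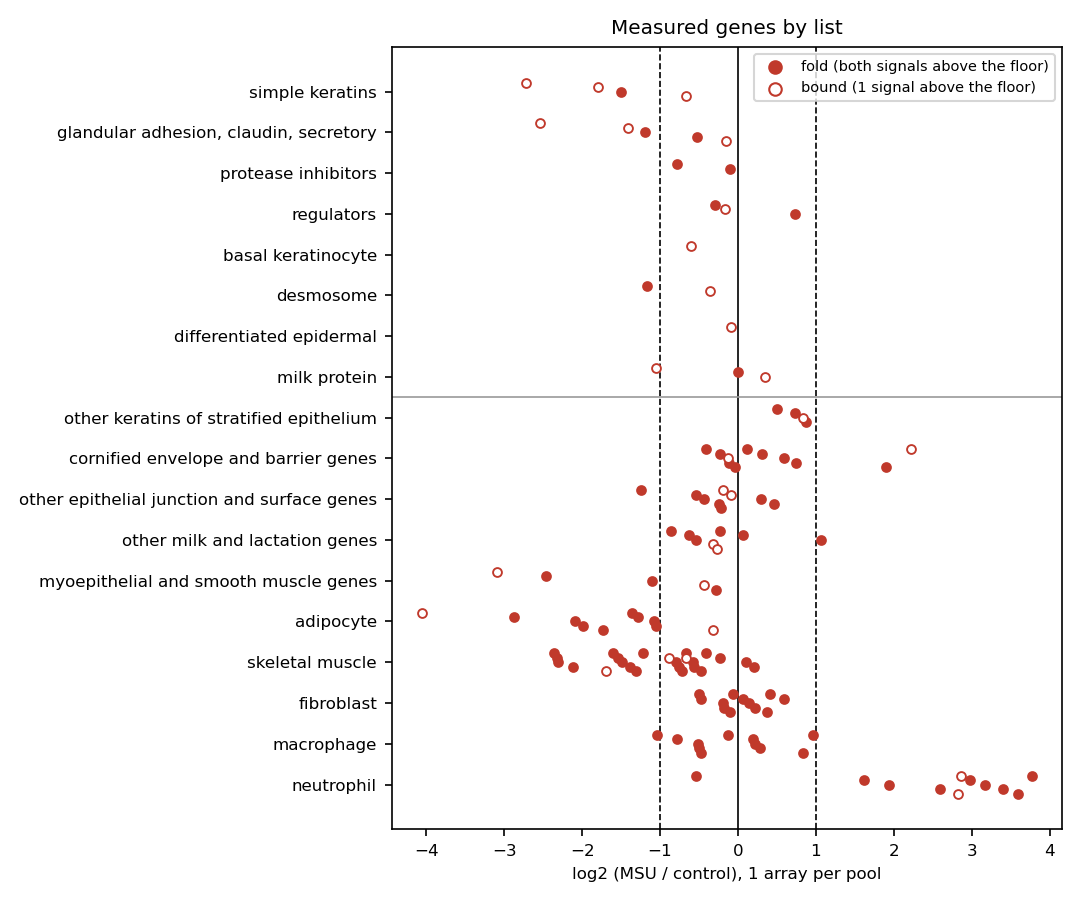
Log2 MSU/control ratio (x axis) of measured genes by list (y axis), from 1 array for each pool. Folds are drawn filled and bounds against the floor open, dashed lines are 2-fold, and the 8 rows above the grey line are the epithelial genes. All 9 measured simple keratin and glandular genes lie left of 0, 6 of them past 2-fold. Of the 9, however, 6 are bounds from the control signal alone, which can only lie left of 0, and 3 are folds. The epithelial genes were also chosen on this ratio. The 12 fibroblast markers are all folds and lie on both sides of 0, so the 2 rows are not alike in this respect.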

How the data were processed

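The deposited values are linear intensities, 1 for each probe set, obtained by the authors with Affymetrix GCOS software (MAS5 in the submitters' processing notes, version not given in the sources used here) and scaled to a common 2% trimmed mean of 150.0 on both arrays. The authors pooled RNA of 3 mice per array. The series record and the paper's methods differ in the air volume and the day of injection. Of 45101 probe sets, 64 were controls. Genes came from the platform annotation, updated by gene identifier with RefSeq GRCm38.p6. Probe sets with several genes (932) were not used.

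Each floor is the signal of the last probe set, ranked by signal, within the number of probe sets that the paper counts as detected on that array. A probe set on one side of it need not have had that Affymetrix detection call, and such calls were not used. With 1 array per pool, the number of arrays limits the precision, counts use a fixed 2-fold, and no test was made. Genes named are all those of the list, and of other lists up to 4 with the largest folds or bounds. A few more are named for smaller ratios, signals below the floor or as tissue markers that the paper used. The genes and lists were chosen with earlier results of these data known. The gene step was tested on simulated data. Changes were planted only in genes with control signals above that of every gene of the list. The simulation therefore did not test the signal range of the listed genes. Alternatives were scaling (median, quantile, spike-ins), the floor (rank 15000, none, pseudocount), the probe set per gene, 3-fold, and bounds in the median. Computations used Python 3.11.15, numpy 2.4.6 and pandas 2.3.3.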

Additional observations from a re-analysis of the deposited data

How the results depend on the processing

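The count of 8 epithelial genes at least 2-fold lower in the MSU pool stayed within 1.5 times under 7 of the alternatives, at 6 to 11, and was 17 with no floor, over all 41 genes, and 3 at a size of 3-fold. No gene was at least 2-fold higher, except 1 (Lalba) with no floor and 1 (Lalba) with each floor added as a pseudocount. The median log2 ratio of -0.52 was -0.98 under scaling on the spike-ins, -1.20 with the floor at the 15000th highest signal and -0.11 with the pseudocount over all 41 genes. Of the simple and glandular genes, 6 were at least 2-fold lower, and 3 at 3-fold. Of the basal and differentiated epidermal genes, none was, but 1 was under scaling on the spike-ins and 3 with no floor. The 18 hybridization spike-ins all had higher signals in the MSU pool, so scaling on them lowered each log2 ratio by 0.46, and the counts over all genes were then 1787 lower (15.8%) and 200 higher, in place of 478 and 413. With no floor they were 1724 and 1623, with the pseudocount 217 and 330, and at 3-fold 80 and 164. Lalba was no longer measured under scaling on the spike-ins, nor were Csn3, Grhl2, Elf5 and Pkp3 under the median over probe sets, so that Csn3 lost its 2-fold bound and Grhl2 its fold. Jup, whose 1 probe set is of a kind that can read several transcripts, had no value without such probe sets. The representing probe sets of Epcam and Cldn3, and the further ones of Krt8, are of that kind too. In the 79 combinations of gene and setting with a value, over the scalings and the median over probe sets, no direction turned. Of these, 22 moved by more than the SD of 0.33 between probe sets, 20 of them under scaling on the spike-ins. Under the median over probe sets, the log2 ratio of Krt8 was at most -1.88 in place of -1.51, and that of Epcam at most -1.84 in place of -1.20. The log2 ratio of Grhl2 was 0.28 in place of 0.73 under scaling on the spike-ins. No paired analysis was possible because each condition had 1 array.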

Other observations

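Genes known from the outer layers of stratified epithelium included some with higher signals in the MSU pool. Which cells of the membrane carried these signals was not tested. Of 25 cornified envelope and barrier genes with a value, 11 were measured, and the 2 that differed by 2-fold or more were both higher. They were the transglutaminase Tgm1, which crosslinks envelope proteins, with 253 in the MSU pool and 67.5 in the control pool, 3.75-fold higher, and the protease Asprv1, with 301 in the MSU pool and 62.2 in the control pool, at least 4.65-fold higher. The control signal of Tgm1 lay near the floor. The other 9 had a fold or a bound under 2-fold, among them Ppl with a log2 ratio of -0.41 and Dmkn with 0.74. Over the 9 genes of this list with a fold, the median log2 ratio was 0.11. Among all measured genes, 3.7% were at least 2-fold higher. Of 12 other keratins of stratified epithelium 4 were measured, Krt6a, Krt23, Krt78 and Krt80, each higher in the MSU pool by less than 2-fold or by a bound below it. Krt6a, a keratin of injured epidermis, was 1.83-fold higher, at 190.7 in the MSU pool and 104 in the control pool. The median log2 ratio of the 3 with a fold was 0.74. Scaling on the spike-ins lowers these ratios by 0.46, which leaves the smallest of the 3, that of Krt80 at 0.50, near 0.

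Glands other than the mammary gland gave few detected genes. Of 11 salivary and lacrimal gland genes with a value 3 were measured, among which the amylase gene Amy1 had 33.3 in the MSU pool and 163 in the control pool, at least 2.19-fold lower. No sebaceous gland gene of 6 with a value was measured. Of 17 hair keratin and inner root sheath genes 2 were measured, Krt71 and Krt81, with log2 ratios of 0.28 and 0.46. That of Krt71 turns negative, and that of Krt81 is near 0, under scaling on the spike-ins. Of 7 mesothelial genes 2 were measured, and the transcription factor gene Wt1, which is not confined to mesothelium, had 193 in the MSU pool and 53.1 in the control pool, at least 2.99-fold higher.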
